A study of Mus musculus with 26 samples.

Results

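The Z-disc gene set comprised 10 of the 55341 genes listed in each library, chosen by name as genes for structural or signalling proteins of the muscle Z-disc: Actn2, Actn3, Ldb3, Myoz1, Myoz2, Myoz3, Myot, Tcap, Csrp3 and Xirp1. The rule uses names only, and the list was drawn up with earlier results of these data known. They were followed in RNA-Seq libraries of C2C12 cells, a mouse myoblast line that fuses into myotubes in differentiation medium. In the knockdown series, there were 18 libraries, 3 for each of the siRNAs siCtrl, siSMYD3#1 and siSMYD3#2 at 0 h and at 24 h of differentiation. By the study's methods each siRNA was given in 2 rounds of transfection, to proliferating cells and again 24 h later as differentiation was started. In the overexpression series, 8 libraries came from SMYD3 CL5, a single clone carrying a pREV retroviral vector for HA-Flag-tagged SMYD3, and from control cells carrying the empty pREV vector, at the same time points, with 2 libraries per condition. All cells were the C2C12 line, and the 2 series shared no library. SMYD3 is a lysine methyltransferase, and both series ask how its level bears on the genes that C2C12 cells switch on during differentiation.

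The Z-disc is the protein lattice at each end of the sarcomere, where actin filaments of opposite polarity are cross-linked and titin is anchored. The alpha-actinins Actn2 and Actn3 are the cross-linkers. Ldb3 (ZASP/Cypher), Myot (myotilin) and the myozenins Myoz1, Myoz2 and Myoz3 (calsarcins, which also bind calcineurin) dock onto alpha-actinin. Tcap (telethonin) caps the N-terminus of titin, Csrp3 (muscle LIM protein) is an adaptor at the Z-disc that also enters the nucleus, and Xirp1 (Xin) is an actin-binding repeat protein known from attachment sites and from damaged or remodelling fibres. In differentiating myoblasts, sarcomere genes are switched on after the transcription factor myogenin (Myog), and Z-disc precursors are among the first sarcomere structures to form.

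The siRNAs and the starts of 3 member genes are shown as sequences. The first set is the guide strand of each siRNA, which sets the knockdown conditions apart from siCtrl. Capitals mark the seed, bases 2 to 8, and the 2 seeds differ.
siSMYD3#1 guide, 5′ to 3′: gUUGGGGUcacagcuguga
siSMYD3#2 guide, 5′ to 3′: uCAAAUCUucaaucaggcu
The 19 bases complementary to each guide matched transcripts of 1 gene in GENCODE M21, Smyd3. In the transcripts of the 10 Z-disc genes, the closest ungapped match had 6 mismatches for siSMYD3#1 and 5 for siSMYD3#2, both in Myoz2.

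The second set is the 250 bases before 1 transcription start each of Csrp3, Ldb3 and Myoz2. Csrp3 and Ldb3 were both higher at 24 h than at 0 h in siCtrl cells. Myoz2 was a low-count member that reached 10 counts in the knockdown series in siCtrl at 24 h alone. A further start of Csrp3 and of Ldb3 is not printed. Sequences were taken from RefSeq (GRCm38.p6), whose promoter table held 4 of the 10 genes (these 3 and Actn2). Capitals mark CANNTG, the letters recognised by basic helix-loop-helix factors such as MyoD and myogenin, searched on both strands.
Csrp3, chr7:48848052-48848301, minus strand: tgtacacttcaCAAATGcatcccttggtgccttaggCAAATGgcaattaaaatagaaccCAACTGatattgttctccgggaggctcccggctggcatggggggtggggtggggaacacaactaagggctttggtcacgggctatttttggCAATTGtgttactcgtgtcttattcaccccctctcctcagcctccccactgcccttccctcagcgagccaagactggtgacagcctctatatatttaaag
Ldb3, chr14:34588682-34588931, minus strand: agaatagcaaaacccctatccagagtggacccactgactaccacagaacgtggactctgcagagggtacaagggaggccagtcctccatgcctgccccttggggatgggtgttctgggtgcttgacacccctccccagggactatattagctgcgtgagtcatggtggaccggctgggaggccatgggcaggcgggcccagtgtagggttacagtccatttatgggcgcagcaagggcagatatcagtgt
Myoz2, chr3:123034988-123035237, minus strand: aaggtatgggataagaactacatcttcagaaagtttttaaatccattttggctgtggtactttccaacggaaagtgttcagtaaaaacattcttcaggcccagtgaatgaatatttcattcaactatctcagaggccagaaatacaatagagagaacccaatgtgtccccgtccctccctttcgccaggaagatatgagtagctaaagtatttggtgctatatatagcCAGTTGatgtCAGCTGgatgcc
CANNTG occurred 4 times before Csrp3, 0 times before Ldb3 and 2 times before Myoz2. The further start of Csrp3 also had it 4 times, at other sites, and that of Ldb3 0 times. Both Myoz2 sites lie inside the gene as drawn by GENCODE, which begins at 123035015 on the minus strand. Of 32851 promoters, 66.2% held CANNTG in the same 250 bases, and 13.0% held CAGCTG, a form of it that occurred 1 time before Myoz2 and before neither of the other 2 genes. A match to the MEF2 motif was found before Myoz2 (2.9% of all promoters had one) and a match to the CArG box, the motif of serum response factor, before Ldb3 (1.5%). These are matches of letters in 1 window per gene and no measure of binding.

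The gene set split into 3 abundant members and 7 scarce ones. Actn3 (19:4861216-4877909, minus strand), Ldb3 (14:34526603-34588682, minus) and Xirp1 (9:120013755-120023598, minus) had more than 3 counts in 26 of 26 libraries, with up to 9326, 3652 and 1887 counts in a library. Csrp3 (7:48830398-48848033, minus) passed 3 counts in 16 libraries with at most 354 counts, Myoz1 (14:20649107-20656540, minus) in 17 with at most 32, Myoz2 (3:123006206-123035015, minus) in 13 with at most 64, and Tcap (11:98383811-98384953, plus) in 12 with at most 137. Actn2 (13:12269426-12340760, minus) passed 3 counts in 4 libraries and never exceeded 8 counts. Myoz3 and Myot, both on chromosome 18, had at most 1 count in any library, 4 counts and 1 count over all 26. Coordinates are those of GENCODE M21 on GRCm38, and none of the 10 genes shared exon bases with another gene. A filter on low counts kept 5 members for testing in the knockdown series (Actn3, Ldb3, Xirp1, Csrp3 and Myoz1) and 7 in the overexpression series (these and Myoz2 and Tcap), so the other 5 and 3 members are given by their counts.

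**Figure D1:**
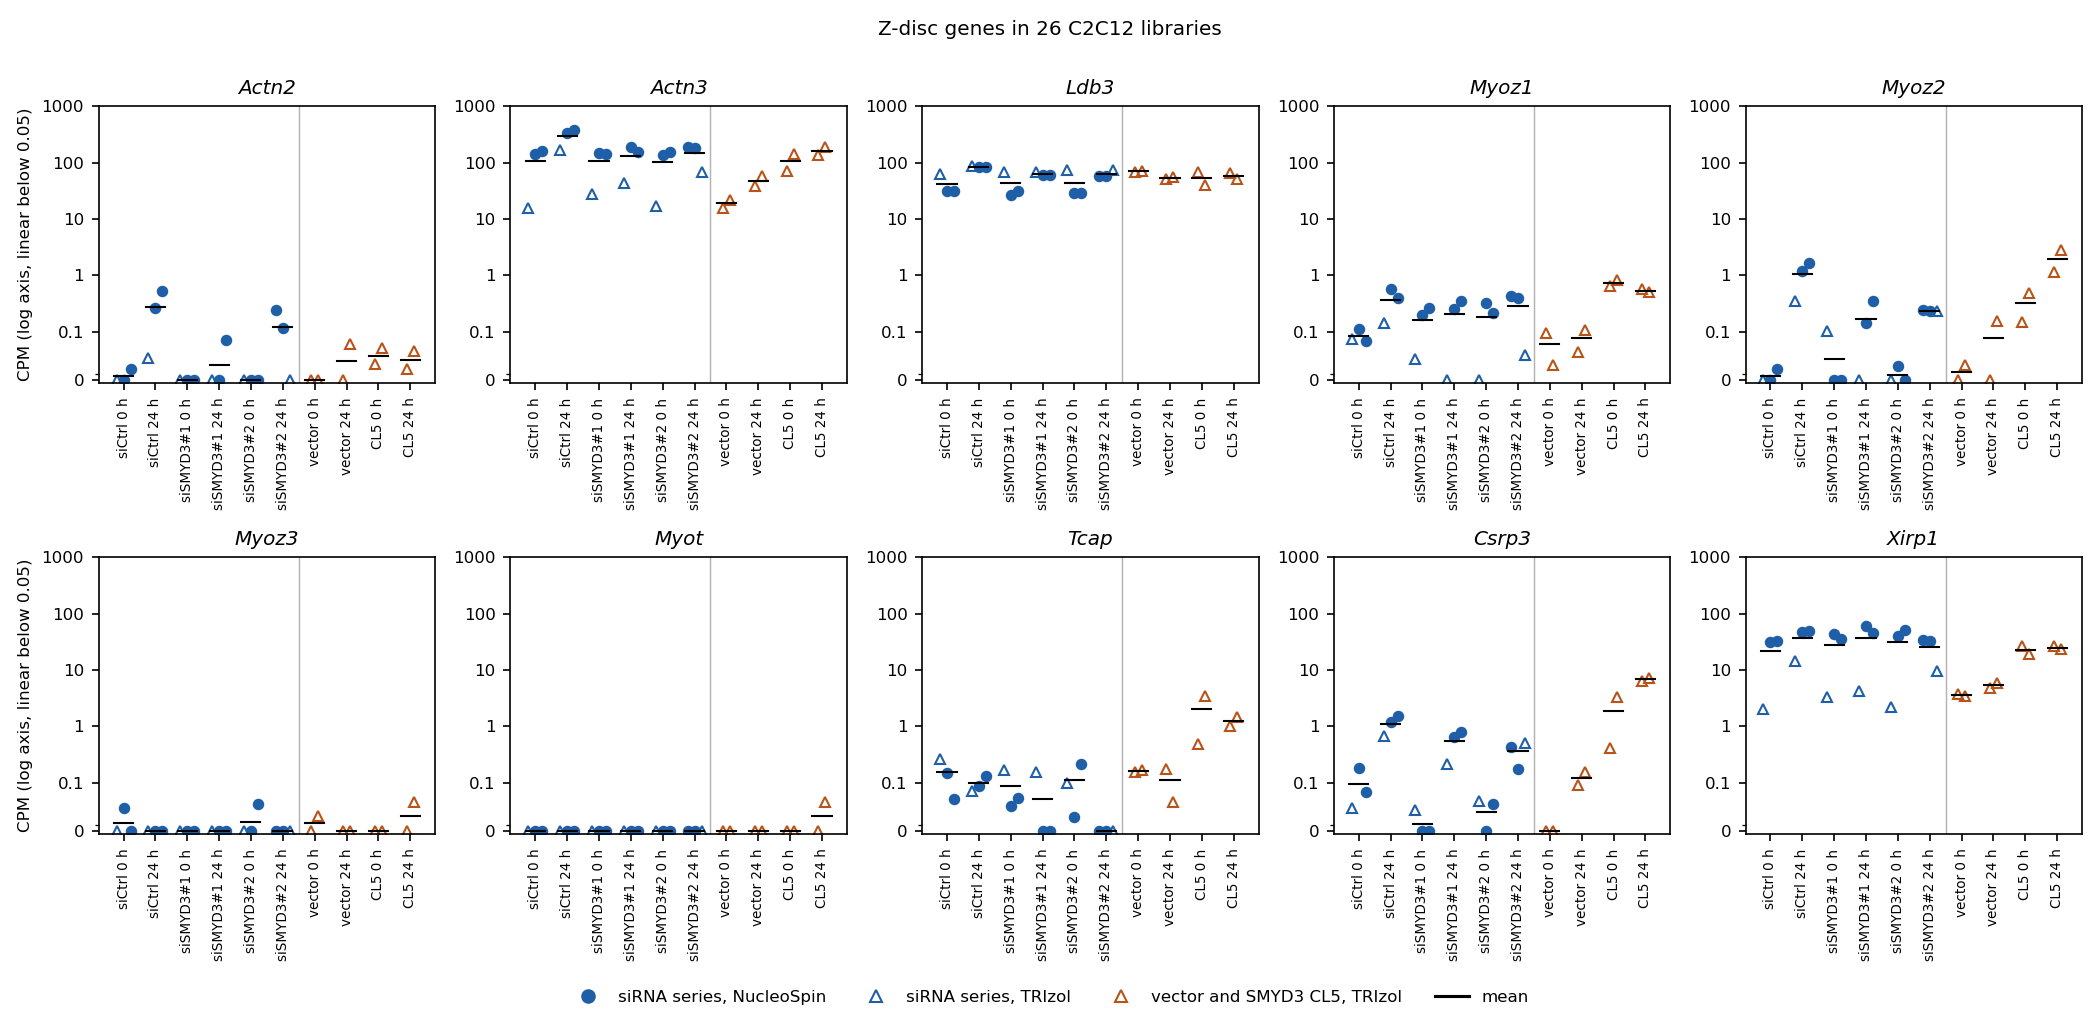
CPM (counts per 1000000 of the TMM-scaled library; log axis, linear below 0.05) of the 10 Z-disc genes in each library, with group means as black bars; blue is the siRNA series (filled circles NucleoSpin, open triangles TRIzol extraction), orange the vector control and SMYD3 CL5. Actn3, Ldb3 and Xirp1 lie above 1 CPM in every library, Myoz3 and Myot at or near 0, and the TRIzol libraries of the siRNA series lie below the NucleoSpin libraries for Actn3 and Xirp1.

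Library totals ranged from 14315193 to 60398170 counts in the knockdown series and from 21124675 to 67853386 in the overexpression series, and 3 counts in a library corresponded to between 0.0460 and 0.212 CPM. Smyd3 itself gave 20.5, 19.5 and 21.6 CPM in siCtrl at 0 h, against 19.3, 16.9 and 19.0 CPM with siSMYD3#1 and 7.56, 8.93 and 6.37 CPM with siSMYD3#2 (both NucleoSpin libraries first, then the TRIzol library). At 24 h its log2 fold change against siCtrl was -1.51 ± 0.17 (SE, edgeR adjusted p = 5.06e-05) with siSMYD3#2 and -0.24 ± 0.16 (adjusted p = 0.414) with siSMYD3#1. Its levels at 24 h were 15.2, 15.1 and 19.3 CPM with siSMYD3#1 against 17.8, 19.9 and 20.7 CPM in siCtrl, in the same order of libraries. Lowered Smyd3 RNA was therefore not detected by this test in the libraries labelled siSMYD3#1, and within these data directions drawn from them rest on that label. The study also measured Smyd3 by qPCR and SMYD3 by western blot in siRNA-treated cells, which are no part of these libraries. In SMYD3 CL5, Smyd3 was 0.36 ± 0.27 (adjusted p = 0.671) above the vector control at 24 h, and how far the vector's own transcript is counted under Smyd3 was not tested. The study reports the tagged protein in its clones by western blot and immunofluorescence. The 5 markers of the muscle line were present in all groups (Des 67.3 to 1506 CPM, Myod1 4.67 to 110 CPM), whereas summed markers reached at most 1.73 CPM for osteoblasts, 1.66 for adipocytes, 1.07 for chondrocytes and 6.79 for blood or endothelium, with Ibsp at 0 and Adipoq, Cidec and Col9a1 at no more than 3 counts in every library.

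In each condition of the knockdown series, 1 library was extracted with TRIzol and 2 with the NucleoSpin kit, and the study's sample list also gives the TRIzol library another cell passage, so extraction and passage cannot be told apart. This split was large for some Z-disc genes. Xirp1 was 15.8 times higher in the NucleoSpin mean than in the TRIzol library of siCtrl at 0 h (30.7 and 32.4 against 1.99 CPM), and Actn3 9.66 times higher (145 and 160 against 15.8 CPM). Ldb3 went the other way, at 0.497 times (31.7 and 30.9 against 63.0 CPM). The summed muscle-line markers ranged from 228 to 1303 CPM over the same 3 libraries. Extraction was therefore a term in the knockdown model, and values within the NucleoSpin libraries stand beside the pooled ones. The study calls its libraries biological replicates but the labels do not say which came from separate cultures, so p-values measure the spread between these libraries, and fewer fused cells cannot be told apart from less RNA per cell.

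In siCtrl cells, Actn3 and Ldb3 rose between 0 h and 24 h of differentiation. Csrp3 and Myoz1 were also called, but reached the level of the filter on low counts (0.391 CPM) in 24 h libraries only, so that they had to differ to be tested, and their values are a description. Actn3 reached 343, 379 and 170 CPM at 24 h from 145, 160 and 15.8 CPM at 0 h (NucleoSpin, NucleoSpin, TRIzol), a log2 fold change of 1.94 ± 0.39 (SE, n = 3 per time, edgeR adjusted p = 0.00144). Every 24 h library lay above every 0 h library. Ldb3, the PDZ-LIM partner of alpha-actinin, reached 83.8, 83.3 and 87.1 CPM from 31.7, 30.9 and 63.0 CPM, a log2 fold change of 1.12 ± 0.23 (adjusted p = 0.0014), again without overlap. The 3 libraries of Ldb3 at 24 h lay close together although those at 0 h did not. Csrp3 counts were 27, 23 and 19 at 24 h against 5, 4 and 1 at 0 h, a log2 fold change of 3.56 ± 0.60 (adjusted p = 0.00011). Myoz1 counts were 13, 6 and 4 against 3, 4 and 2, and its log2 fold change of 2.27 ± 0.65 (adjusted p = 0.0087) rests on these few counts. Xirp1 gave 46.6, 49.7 and 14.5 CPM against 30.7, 32.4 and 1.99 CPM, a log2 fold change of 1.26 ± 0.47 that missed the threshold of 0.01 (adjusted p = 0.0448).

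Of all 15820 genes tested, 29.4% passed the threshold in siCtrl over time. Of the 5 tested members 4 were called, the 2 scarce ones included. Among members that could not be tested, Myoz2 had 27, 25 and 10 counts at 24 h against 0, 1 and 0, at least 11.7-fold higher with 3 counts per library set for 0 h, and Actn2 had 6, 8 and 1 against 0, 1 and 0, at least 3.02-fold higher. Tcap had 2 counts in each 24 h library against 4, 3 and 7 at 0 h. Myog, the myogenic factor that marks the onset of differentiation, rose by a log2 fold change of 7.25 ± 0.38 (edgeR adjusted p = 8.45e-09). Without the extraction term, Csrp3 was the 1 member called, and leaving out either NucleoSpin library at 24 h left 3 (Actn3, Ldb3 and Csrp3), as did a replicate block. The shares of all genes called without a library or with the block are not given. These 3 cannot be told apart from a general change in calls. The adjusted p of Myoz1 ran from 0.00389 to 0.119 over the libraries left out. Within the NucleoSpin libraries, where 33.2% of genes passed, Actn3, Ldb3 and Xirp1 were called, while Csrp3, Myoz1 and Myoz2 reached the filter level (0.424 CPM) at 24 h only and are given by their counts. There the log2 fold change was 1.22 ± 0.10 for Actn3, 1.40 ± 0.09 for Ldb3 and 0.59 ± 0.14 for Xirp1, so that Actn3 and Xirp1 moved less than in the pooled fit and Ldb3 more.

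With either siRNA, Csrp3 was the 1 member called over the same 24 h, again after reaching the filter level in 24 h libraries only, against 25.4% of genes called with siSMYD3#1 and 19.0% with siSMYD3#2. Its counts with siSMYD3#1 were 18, 11 and 7 at 24 h (NucleoSpin, NucleoSpin, TRIzol) against 0, 0 and 1 at 0 h, at least 4.38-fold higher (edgeR adjusted p = 0.000685). With siSMYD3#2 they were 7, 3 and 13 against 0, 1 and 1, at least 3.29-fold higher (adjusted p = 0.00269). Leaving out the first NucleoSpin library at 0 h or the TRIzol library at 24 h of siSMYD3#2 ended that call and left 0 members, and leaving out the TRIzol library at 0 h gave 2 (Ldb3 and Csrp3). Actn3 changed by 0.37 ± 0.37 on the log2 scale with siSMYD3#1 (adjusted p = 0.472) and by 0.83 ± 0.38 with siSMYD3#2 (adjusted p = 0.113). Ldb3 changed by 0.66 ± 0.23 with siSMYD3#1 (adjusted p = 0.0396) and by 0.65 ± 0.23 with siSMYD3#2 (adjusted p = 0.0465). Within the NucleoSpin libraries, 34.8% and 26.2% of genes passed. There Ldb3 was called with both siRNAs, at 1.01 ± 0.10 and 0.98 ± 0.09. Actn3 stood at 0.23 ± 0.10 and 0.30 ± 0.10 and was called with neither. Csrp3 missed the threshold there with siSMYD3#2 (edgeR adjusted p = 0.0102, over all alternatives to the pooled fit 5.39e-05 to 0.0295). The TRIzol libraries differed from this. Ldb3 went from 69.6 to 67.9 CPM with siSMYD3#1 and from 73.3 to 74.0 CPM with siSMYD3#2. Actn3 went from 27.4 to 43.1 CPM and from 17.2 to 69.6 CPM.

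At 24 h, all 5 tested Z-disc genes had lower estimates with each siRNA than with siCtrl, and 0 of the 5 passed the threshold in either comparison. Of all genes, 5.85% passed with siSMYD3#1 and 3.70% with siSMYD3#2. At an unadjusted p of 0.05, edgeR gave 2 members for each siRNA (Actn3 and Csrp3), beside 24.1% and 22.3% of all genes, and DESeq2 called 1 (Actn3) with siSMYD3#1 and 0 with siSMYD3#2 at its adjusted threshold, beside 8.28% and 6.95% of all genes. The 2 comparisons share the siCtrl libraries. Myog was lower with both siRNAs, by a log2 fold change of -3.59 ± 0.30 (edgeR adjusted p = 5.4e-06) with siSMYD3#1 and -1.81 ± 0.28 (adjusted p = 0.00125) with siSMYD3#2, and its part in the Z-disc levels was not tested.

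Actn3 had the lowest adjusted p of the members with each siRNA. It gave 189, 158 and 43.1 CPM with siSMYD3#1 and 189, 182 and 69.6 CPM with siSMYD3#2, against 343, 379 and 170 CPM in siCtrl. The NucleoSpin libraries with an siRNA overlapped the siCtrl range only through the TRIzol library of siCtrl, and the siRNA library was below the siCtrl library within each extraction. The log2 fold change was -1.45 ± 0.38 (edgeR adjusted p = 0.0272) for siSMYD3#1 and -1.12 ± 0.38 (adjusted p = 0.088) for siSMYD3#2. Ldb3 gave 59.8, 59.6 and 67.9 CPM and 59.2, 57.5 and 74.0 CPM against 83.8, 83.3 and 87.1 CPM, with every siRNA library below every siCtrl library, and log2 fold changes of -0.45 ± 0.23 (adjusted p = 0.257) and -0.44 ± 0.23 (adjusted p = 0.285). Csrp3 gave 0.653, 0.778 and 0.215 CPM and 0.424, 0.173 and 0.51 CPM against 1.18, 1.50 and 0.668 CPM. Its siSMYD3#2 libraries lay below all siCtrl libraries and its siSMYD3#1 libraries overlapped them, with log2 fold changes of -1.42 ± 0.53 (adjusted p = 0.107) and -1.08 ± 0.50 (adjusted p = 0.19). Xirp1 gave 59.4, 45.2 and 4.26 CPM and 34.4, 32.7 and 9.57 CPM against 46.6, 49.7 and 14.5 CPM, with log2 fold changes of -0.51 ± 0.46 (adjusted p = 0.573) and -0.59 ± 0.46 (adjusted p = 0.512). Myoz1 differed by -1.11 ± 0.61 (adjusted p = 0.289) and -0.49 ± 0.59 (adjusted p = 0.691), from at most 13 counts in a library.

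**Figure D2:**
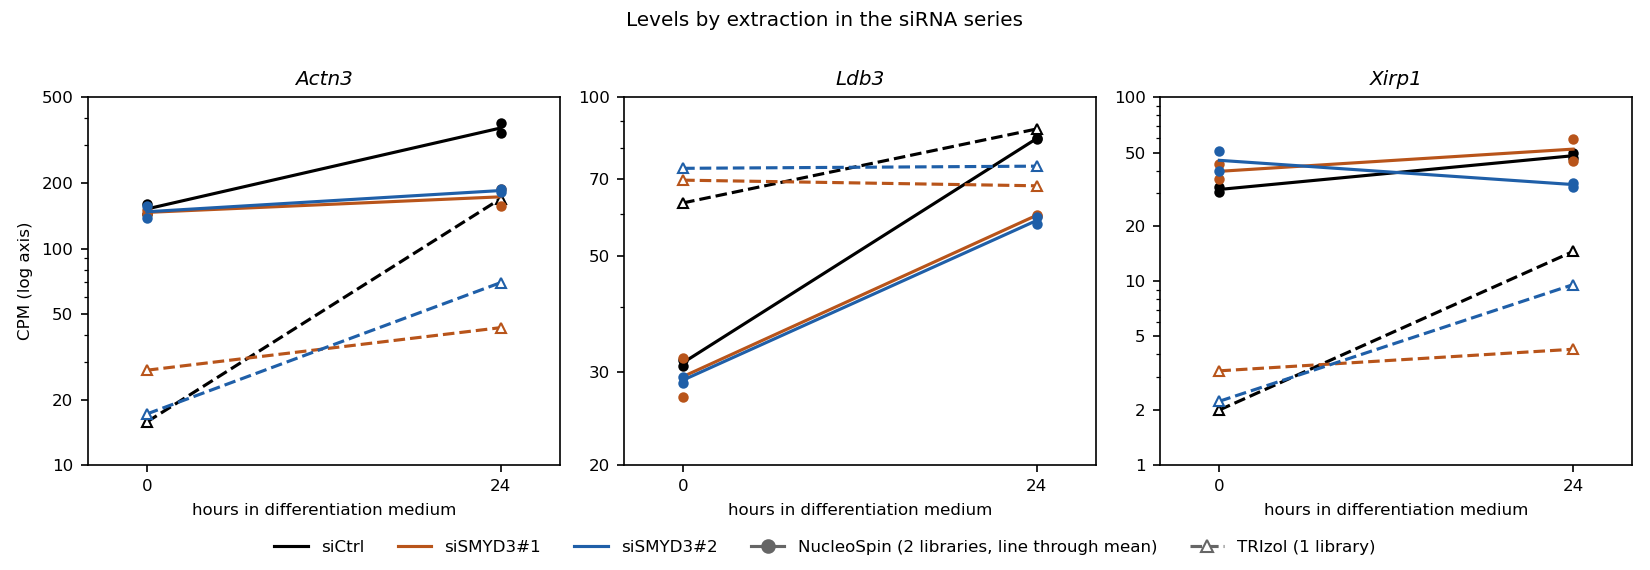
CPM (log axis) of Actn3, Ldb3 and Xirp1 at 0 h and 24 h of differentiation, for siCtrl (black), siSMYD3#1 (orange) and siSMYD3#2 (blue); filled circles are the 2 NucleoSpin libraries with a solid line through their mean, open triangles with dashed lines the 1 TRIzol library. In siCtrl, Actn3 climbs to 343 and 379 CPM in the NucleoSpin libraries, whereas the 4 NucleoSpin libraries with an siRNA at 24 h end between 158 and 189 CPM.

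Within the NucleoSpin libraries, where 11.6% of genes passed for siSMYD3#1 and 8.38% for siSMYD3#2, Actn3 and Ldb3 were called lower with each siRNA. The ranges of adjusted p in the next sentences run over all alternatives to the pooled fit, the NucleoSpin fit included. Actn3 fell by 1.05 ± 0.10 on the log2 scale with siSMYD3#1 (2 libraries per group, edgeR adjusted p = 1.91e-06, over its alternatives 2.64e-34 to 0.768) and by 0.96 ± 0.10 with siSMYD3#2 (adjusted p = 9.03e-06, over its alternatives 5.38e-20 to 0.858). Ldb3 fell by 0.48 ± 0.09 (adjusted p = 0.00131, over its alternatives 0.00131 to 0.841) and by 0.52 ± 0.09 (adjusted p = 0.00107, over its alternatives 0.00107 to 0.881). Myoz2, the slow-fibre and heart calsarcin, counted 4 and 5 with siSMYD3#1 and 4 and 4 with siSMYD3#2 against 27 and 25 in siCtrl. It passed the filter there through the 2 siCtrl libraries alone, so its lower counts are a description. In the TRIzol libraries, Myoz2 counted 0 and 6 against 10. Xirp1 differed in sign between the siRNAs in this batch, at 0.13 ± 0.14 with siSMYD3#1 and -0.52 ± 0.14 with siSMYD3#2, and neither was called against siCtrl. With siSMYD3#1 directly against siSMYD3#2, Xirp1 was called in this batch, at 0.65 ± 0.14 (edgeR adjusted p = 0.00371, over its alternatives 0.00371 to 0.987). The share of all genes called there is given with the dependence on processing. Leaving out the TRIzol library of siCtrl at 24 h from the pooled fit turned the sign of Xirp1 for both siRNAs, to 0.063 and 0.0475.

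Before differentiation, at 0 h, 0 of the 5 tested members were called with siSMYD3#1 (1.43% of all genes were) or with siSMYD3#2 (0.531%). By edgeR 0 members had an unadjusted p under 0.05 in either comparison (13.9% and 10.1% of all genes did), and DESeq2 called 0 (4.41% and 1.85% of all genes). The log2 fold changes ranged from -2.31 (Csrp3) to 1.00 (Myoz1) and from -1.80 (Csrp3) to 1.20 (Myoz1), both ends in genes with at most 15 counts per library. Actn3 at 0 h was 150, 144 and 27.4 CPM with siSMYD3#1 and 138, 158 and 17.2 CPM with siSMYD3#2, against 145, 160 and 15.8 CPM in siCtrl, so the groups overlapped. Between the 2 siRNAs at 24 h, 0 members were called in the pooled fit (3.36% of genes were), with 0 at an unadjusted p of 0.05 (22.2% of genes) and 0 by DESeq2 (7.40%), and log2 fold changes of siSMYD3#1 against siSMYD3#2 from -0.62 (Myoz1) to 0.33 (Csrp3).

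The difference of each siRNA's effect between 24 h and 0 h was called for 0 members in the pooled fit, against 0.215% of genes for siSMYD3#1 and 0.0190% for siSMYD3#2. At an unadjusted p of 0.05 edgeR gave 2 members (Actn3 and Myoz1) and 0, beside 1388 and 1585 of 15820 genes, and DESeq2 called 0 and 0, beside 0.939% and 0.899%. For Actn3 this difference was -1.58 ± 0.53 (edgeR adjusted p = 0.328) and -1.11 ± 0.53 (adjusted p = 0.516). The ranges of adjusted p in the next sentences run over all alternatives to the pooled fit, the NucleoSpin fit included. Within the NucleoSpin libraries, where 1.05% and 1.15% of genes passed, Actn3 was called for both siRNAs, at -0.99 ± 0.14 (edgeR adjusted p = 0.000931, over its alternatives 1.56e-19 to 1) and -0.93 ± 0.14 (adjusted p = 0.00194, over its alternatives 5.08e-09 to 1). Xirp1 was called for siSMYD3#2 there, at -1.06 ± 0.19 (adjusted p = 0.00603, over its alternatives 1.67e-05 to 1): it went from 40.0 and 50.9 CPM at 0 h to 34.4 and 32.7 CPM at 24 h, while siCtrl went from 30.7 and 32.4 to 46.6 and 49.7 CPM. In the TRIzol libraries Xirp1 was higher at 24 h than at 0 h with siSMYD3#2 (9.57 against 2.22 CPM, log2 ratio 2.11) and with siCtrl (14.5 against 1.99 CPM, log2 ratio 2.87). The rise was thus smaller with siSMYD3#2 there, from 1 library per group.

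In SMYD3 CL5, Xirp1 was called above the vector control at each time point, as the 1 member to pass. Csrp3, Tcap, Myoz2 and Myoz1 reached the filter level of this series (0.239 CPM) in CL5 libraries only, so that their higher values in CL5 are a description, and Actn3 and Ldb3 missed the threshold. Of 17835 genes tested, 0.964% passed at 24 h and 1.07% at 0 h. Xirp1 gave 26.3 and 23.3 CPM in CL5 at 24 h against 4.77 and 5.84 CPM in the vector control, a log2 fold change of 2.23 ± 0.26 (n = 2 per group, edgeR adjusted p = 0.00581). At 0 h it gave 26.2 and 19.4 CPM against 3.77 and 3.41 CPM, a log2 fold change of 2.67 ± 0.27 (adjusted p = 0.00328). The 4 CL5 libraries lay above all 4 vector libraries. Leaving out any of the 4 libraries at 24 h, or either vector library at 0 h, left 0 members called. Leaving out CL5 replicate 1 at 0 h gave 5 (Actn3, Myoz1, Tcap, Csrp3 and Xirp1), and leaving out CL5 replicate 2 at 0 h gave 2 (Actn3 and Xirp1). Calls over all genes moved too: fewer passed than in the main fit where 0 members were left, and more where 5 were. Those shares are given with the dependence on processing, and the share without CL5 replicate 2 is not given. DESeq2 called 5 members at each time point, where it called 3.98% of all genes at 24 h and 5.17% at 0 h, and these too include scarce members. At an unadjusted p of 0.05 edgeR gave 6 members at each time point, beside 2488 and 3258 of all genes.

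Csrp3 showed the widest separation of the scarce members. Its counts were 354 and 158 in CL5 at 24 h against 4 and 10 in the vector control, 56.0 times higher as a ratio of mean CPM (log2 fold change 5.74 ± 1.07, edgeR adjusted p = 0.0449). At 0 h they were 16 and 131 against 0 and 0, at least 22.5-fold higher (adjusted p = 0.0473). The 2 CL5 libraries at 0 h were far apart in this gene, and Myog was too (631 and 3199 counts, replicates 1 and 2). Tcap, the titin cap, counted 58 and 32 against 8 and 3 at 24 h, 11.2 times higher (adjusted p = 0.149), and 19 and 137 against 5 and 7 at 0 h, 12.2 times higher (adjusted p = 0.115). Its counts passed 8 in no library outside CL5. Myoz2 counted 64 and 61 against 0 and 10 at 24 h, 25.7 times higher (adjusted p = 0.0892), and 6 and 19 against 0 and 1 at 0 h, at least 3.82-fold higher (adjusted p = 0.218). Myoz1, the fast-fibre calsarcin, counted 32 and 11 against 2 and 7 at 24 h, 7.08 times higher (adjusted p = 0.0723), and 26 and 32 against 3 and 1 at 0 h, at least 8.83-fold higher (adjusted p = 0.0356). These sizes rest on single libraries. Over the libraries left out, the log2 fold change at 0 h ran from 1.56 (without CL5 replicate 2) to 4.45 for Tcap, 3.25 to 6.78 for Myoz2, 7.15 to 10.22 for Csrp3 and 2.93 to 4.83 for Myoz1. At 24 h it ran from 2.82 to 4.66 for Tcap, 3.63 to 9.27 (without vector replicate 2) for Myoz2, 5.43 to 6.24 for Csrp3 and 2.30 to 3.55 for Myoz1.

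Actn3 gave 136 and 188 CPM in CL5 at 24 h against 37.9 and 57.1 CPM in the vector control, without overlap, a log2 fold change of 1.77 ± 0.40 (edgeR adjusted p = 0.0659). At 0 h it gave 70.4 and 143 CPM against 15.9 and 21.9 CPM, 2.49 ± 0.41 (adjusted p = 0.0214). Ldb3 did not separate the groups: 64.8 and 52.2 CPM against 51.1 and 55.9 CPM at 24 h (0.13 ± 0.29, adjusted p = 0.93), and 68.6 and 39.4 CPM against 67.9 and 71.9 CPM at 0 h (-0.37 ± 0.29, adjusted p = 0.523). Actn2 had at most 4 counts in any library of this series. Myog was 3.82 ± 0.73 above the vector control on the log2 scale at 24 h (adjusted p = 0.0376) and 6.86 ± 0.89 at 0 h (adjusted p = 0.00885).

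**Figure D3:**
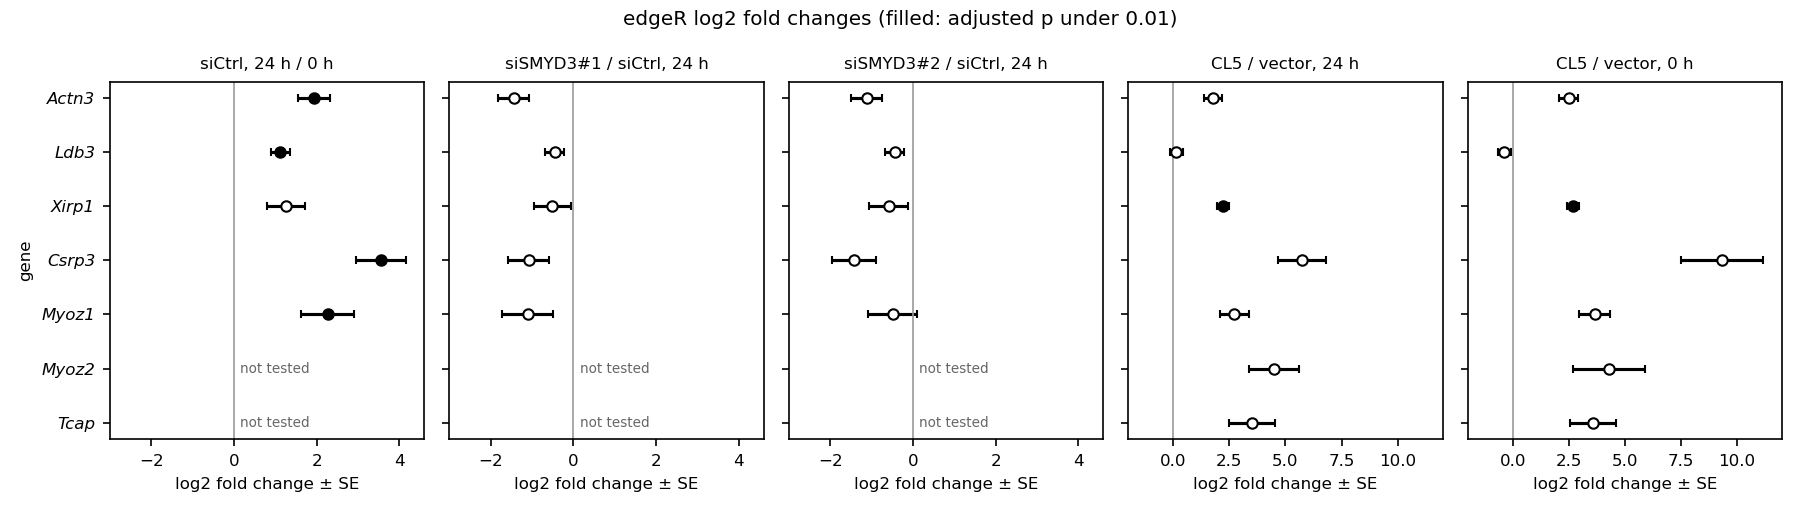
log2 fold change with its standard error from edgeR for each tested Z-disc gene in 5 comparisons, filled where the adjusted p was under 0.01; the 2 panels of SMYD3 CL5 have a wider axis. In siCtrl over time 4 genes are filled, in the siRNA panels all 5 estimates lie below 0 and none is filled, and in the CL5 panels Xirp1 alone is filled; the Csrp3 value at 0 h is set against 0 counts in the vector control.

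Over time, neither the vector control nor CL5 gave a called member, and edgeR called 0% of all genes in either comparison or in the difference between them (0% in each of the 3). At an unadjusted p of 0.05 it gave 1256, 1137 and 312 genes, and DESeq2 called 112, 96 and 2. Among members, the unadjusted count was 1 for the vector control (Actn3, log2 fold change 1.33 ± 0.40, adjusted p = 0.514), 1 for CL5 (Myoz2, 2.60 ± 1.00, adjusted p = 0.709) and 0 for the difference, and DESeq2 called 0 in each. The log2 fold changes ran from -0.62 (Tcap) to 5.43 (Csrp3, from 0 counts) in the vector control, from -0.69 (Tcap) to 2.60 (Myoz2) in CL5, and from -3.58 (Csrp3) to 0.50 (Ldb3) for the difference. In the vector control 5 tested members were higher at 24 h and 2 lower, Tcap and Ldb3. There, unlike in siCtrl, Ldb3 went from 67.9 and 71.9 CPM at 0 h to 51.1 and 55.9 CPM at 24 h (-0.39 ± 0.29, edgeR adjusted p = 0.861).

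Per length, as CPM per kb of exon, Actn3 was the most abundant member in siCtrl at 24 h, at 102 ± 38.4 (SD, n = 3), followed by Ldb3 at 13.9 ± 0.339 and Xirp1 at 6.33 ± 3.34. Csrp3 (0.419 ± 0.157), Myoz2 (0.308 ± 0.19) and Myoz1 (0.194 ± 0.114) came next, ahead of Tcap (0.101 ± 0.0327) and Actn2 (0.0721 ± 0.0642). The spreads of Csrp3, Myoz2 and Myoz1 over libraries overlapped. Their order was the same in each of the 3 libraries, from at most 27 counts of a gene in a library. Actn3 made up 77.3 to 84.6% of the summed level of the 10 members in these libraries. In the vector control at 0 h the order of the first pair was turned, with Ldb3 at 11.5 ± 0.465 (SD, n = 2) and Actn3 at 6.52 ± 1.45, and Ldb3 held 58.5 to 63.6% of the sum. The summed level per kb was 124 on average in siCtrl at 24 h (76.0 to 154 over the libraries). It was 61.7 with siSMYD3#1 (26.9 to 85.5) and 65.8 with siSMYD3#2 (38.1 to 81.2), and both ranges overlapped that of siCtrl. The lowest value in each of these groups was the TRIzol library, and the overlap came through that of siCtrl alone. Within each extraction, the siRNA libraries lay below siCtrl, which was not tested for the sum. In CL5 at 24 h it was 74.3 (66.0 to 82.7) against 26.3 in the vector control (22.5 to 30.1).

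The alpha-actinin family set the muscle gene Actn3 beside the widely expressed Actn1 and Actn4, which cross-link actin in stress fibres and adhesions. Per kb, Actn3 rose from 36.9 ± 27.3 to 102 ± 38.4 in siCtrl (SD, n = 3), while Actn1 went from 73.1 ± 17.3 to 63.0 ± 9.88 and Actn4 from 103 ± 20.2 to 87.4 ± 11.7, neither past the threshold (adjusted p = 0.0488 and 0.0608). Actn3 thus held on average 17.7% of the family level at 0 h (2.43 to 25.3% over the libraries) and 39.9% at 24 h (25.1 to 48.9%) in siCtrl. At 24 h it held 20.8% with siSMYD3#1 (6.27 to 29.6%) and 23.0% with siSMYD3#2 (10.8 to 29.7%). Each siRNA range overlapped the siCtrl range at 24 h, through the TRIzol library of siCtrl alone. Within each extraction, the share was lower with either siRNA than in siCtrl, which was not tested. In the overexpression series it held 6.90% in the vector control and 26.5% in CL5 at 24 h, from 3.02% and 19.1% at 0 h. Actn2, the cardiac and all-fibre isoform, held at most 0.0515% in any siCtrl library at 24 h. Actn1 was higher with both siRNAs than with siCtrl at 24 h, by 0.41 ± 0.08 (adjusted p = 0.00201) and 0.37 ± 0.08 (adjusted p = 0.00673) on the log2 scale, and Actn4 differed by 0.06 ± 0.10 (adjusted p = 0.793) and 0.02 ± 0.10 (adjusted p = 0.933).

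**Figure D4:**
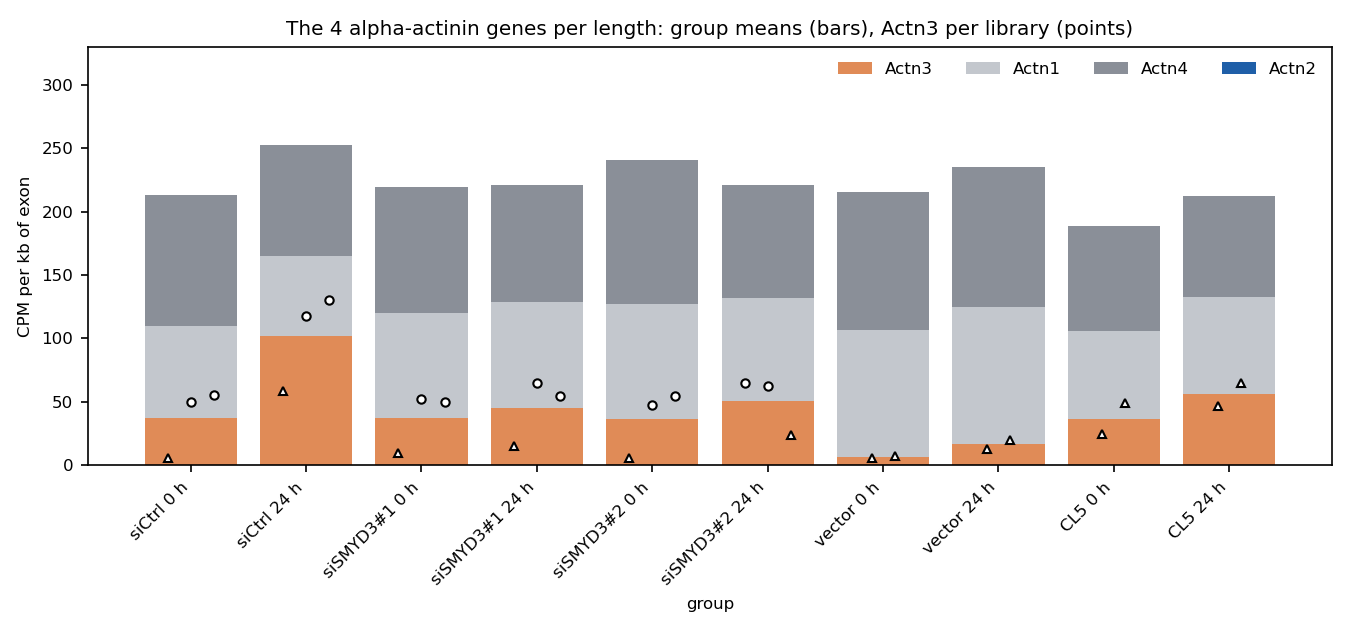
Level per length (CPM per kb of exon) of the 4 alpha-actinin genes, as stacked group means with Actn3 at the base, and Actn3 in each library as points (circles NucleoSpin, triangles TRIzol). Actn3 is the part that differs most between groups, from 6.52 in the vector control at 0 h to 102 in siCtrl at 24 h, and Actn2 is too low to be seen. Those groups belong to separately scaled series, and the vector control was extracted with TRIzol throughout. In siCtrl at 24 h, Actn3 was 58.7 in the TRIzol library and 118 and 130 in the NucleoSpin libraries.

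Another 38 genes of Z-disc proteins and their partners, from a list that does not hold the 10 members, gave the setting of these changes. Of these, 33 were tested in the knockdown series and 37 in the overexpression series. This list too was drawn up with earlier results of these data known. Its genes, Igfn1 among them, could pass the filter through the groups where they were high. The shares called are therefore a description. In siCtrl over time 16 rose and 1 fell (51.5% of those tested, against 29.4% of all genes), with a median log2 fold change of 0.46 over the list against 0.03 over all genes tested. Among the largest were Neb (nebulin, which runs along the thin filament from the Z-disc) at 4.43 ± 0.62 (edgeR adjusted p = 4.52e-05) and Pdlim3 (a PDZ-LIM protein that binds alpha-actinin) at 3.25 ± 0.58 (adjusted p = 0.000727). With siSMYD3#1 against siCtrl at 24 h, 4 were raised and 5 lowered (27.3%, against 5.85% of all genes), with a median log2 fold change of -0.12 over the list. Among the lowered were Neb at -2.90 ± 0.57 (adjusted p = 0.00377) and Itgb1bp2 (melusin) at -2.31 ± 0.45 (adjusted p = 0.00209). The raised genes were Actn1 and, named after their values were seen, Csrp2 at 0.78 ± 0.10, Fhl2 at 0.67 ± 0.08 and Csrp1 at 0.41 ± 0.08 (adjusted p = 4.57e-05, 3.03e-05 and 0.00249), all LIM proteins. With siSMYD3#2, 2 were raised (Actn1, and Fhl2 at 0.53 ± 0.08, adjusted p = 0.00052) and 4 lowered (18.2%, against 3.70% of all genes), with a list median of -0.26. The median over all genes tested was -0.0005 and -0.0037 in the 2 comparisons. Among the lowered were Xirp2 (the Xin paralogue of Xirp1) at -1.60 ± 0.24 (adjusted p = 0.000383) and Cryab (a small heat shock protein) at -0.61 ± 0.11 (adjusted p = 0.00177). In CL5 against the vector control at 24 h, 3 were raised and 0 lowered (8.11%, against 0.964% of all genes), with a list median of 0.24 against 0.02 over all genes. Among them were Igfn1, whose fold is not given as the vector control held at most 3 counts, and Nrap (a nebulin-related anchoring protein) at 2.74 ± 0.32 (adjusted p = 0.00591). At 0 h, 4 were raised in CL5 (10.8%, against 1.07% of all genes), with a list median of 0.69 against -0.03 over all genes. Of the genes named here, Neb, Nrap, Xirp2 and Cryab, and also Actn1 and Actn4, overlap exons of opposite-strand genes (252 of 1479 bases in Cryab, by Hspb2), and as the strand setting of the counting is not known their values are uncertain to that extent.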

How the data were processed

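Poly(A) RNA of 26 C2C12 libraries was sequenced as stranded paired-end reads. The authors aligned reads to GRCm38 with HISAT2 2.1.0, counted them per gene with featureCounts (Subread 1.6.3) and deposited raw counts, without normalization. The strand setting, the treatment of multi-mapped reads and the annotation release are not given in the sources used here. Of 55341 genes, 54495 are in GENCODE M21, used for symbols and exon lengths.

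Counts were tested with edgeR 4.0.16 (R 4.3.3): filterByExpr, TMM scaling and a robust quasi-likelihood fit, p-values adjusted by Benjamini-Hochberg over every tested gene and called under 0.01. The knockdown fit held 18 libraries as 6 groups with extraction as covariate (15820 genes), and the overexpression fit 8 libraries as 4 groups (17835 genes). Standard errors are the log2 fold change over the square root of F. Groups came from the public labels. A group whose libraries all held 3 counts or fewer of a gene was at the floor, and folds against it are bounds that cover counting error only. Scripts were tested on simulated data. Alternatives were DESeq2 1.42.0, its size factors, no filter, no extraction term, NucleoSpin libraries only, a replicate block, all 26 libraries in 1 fit and leaving out each library.

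Replicate numbers were not in the labels and came from the study's sample list. Over all knockdown libraries, deviations of same-numbered libraries correlated at 0.313 to 0.851, but 1 number coincides with TRIzol extraction. Among NucleoSpin libraries the correlation was -0.102 to 0.177, and in the overexpression series -0.0973 to 0.483.

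All 10 members are named, with Smyd3 and Myog for context, Actn1 and Actn4, and of 38 other Z-disc genes the 3 largest called changes in each of 4 comparisons, except 1 gene that is not reported here. Members and lists were chosen with earlier results of these data known.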

Additional observations from a re-analysis of the deposited data

Results flagged for a closer look

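Restricted to the NucleoSpin libraries, 3 effects of an siRNA differed between 24 h and 0 h of differentiation by a test of the difference itself (edgeR interaction term, adjusted p under 0.01). The difference was -0.99 ± 0.14 for Actn3 with siSMYD3#1, -0.93 ± 0.14 for Actn3 with siSMYD3#2 and -1.06 ± 0.19 for Xirp1 with siSMYD3#2, on the log2 scale. In the fit of all 18 knockdown libraries with extraction as covariate, none of the 3 passed the threshold (adjusted p = 0.328, 0.516 and 0.641). Groups held 2 or 3 libraries, so no group was searched for a single library far from the others.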

How the results depend on the processing

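Numbers of members called are given with the share of all genes called in the same fit in parentheses, unless said otherwise. They include scarce members that passed the filter, or were tested without it, with counts in 1 group only. The cause of the changes was not tested. DESeq2 called 2 members with siSMYD3#1 (29.5%) and 2 with siSMYD3#2 (22.5%) over time, 1 with siSMYD3#1 against siCtrl at 24 h (8.28%), and 5 in CL5 against the vector control at 24 h (3.98%) and 5 at 0 h (5.17%). Without the filter on low counts, the numbers were 3 (14.2%) and 4 (11.7%) for the siRNAs over time, 4 (siSMYD3#1, 4.75%) and 3 (siSMYD3#2, 3.71%) against siCtrl at 24 h, 2 (0.879%) and 2 (0.730%) for the differences between 24 h and 0 h, 6 (3.20%) and 6 (3.86%) in CL5 against the vector control at 24 h and 0 h, 1 in the vector control over time (0.629%) and 1 in CL5 over time (0.670%). Without the extraction covariate, 1 member was called in siCtrl over time (10.6%) and 0 with siSMYD3#2 (3.69%). With NucleoSpin libraries only, 3 were called with siSMYD3#1 over time (34.8%), 3 (11.6%) and 3 (8.38%) against siCtrl at 24 h with Myoz2 among them, 1 between the siRNAs (Xirp1, 9.76%), and 1 (1.05%) and 2 (1.15%) for the differences. With a replicate block, CL5 against the vector control gave 2 at 24 h (1.28%) and 2 at 0 h (1.30%; Actn3 and Xirp1), and the block removed Myoz1 from siCtrl over time. With all 26 libraries in 1 fit the CL5 comparisons gave 5 (7.63%) and 5 (11.4%).

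Leaving out each library in turn, the number ranged from 3 to 5 in siCtrl over time, where the shares of all genes are not given. With siSMYD3#2 over time it ranged from 0 (12.5 and 12.7% of genes) to 2 (19.2%). For siSMYD3#1 against siCtrl at 24 h it ranged from 0 to 1 (Myoz2, 5.90%). In CL5 the number stayed at 0 at 24 h (at most 0.0638%) and ranged from 0 (at most 0.00530%) to 5 (12.6%) at 0 h. The sign turned for members that were not called. Xirp1 over time with siSMYD3#2 was -0.29 without the extraction covariate and -0.46 with NucleoSpin libraries only, and with siSMYD3#1 against siCtrl at 24 h it was 0.13 with NucleoSpin libraries only. Over the libraries left out, log2 fold changes ranged from -0.17 to 0.41 for Myoz1 with siSMYD3#1 over time, -0.29 to 0.46 for Xirp1 with siSMYD3#2 over time, -0.80 to 0.063 and -1.14 to 0.0475 for Xirp1 against siCtrl at 24 h (siSMYD3#1, siSMYD3#2), from -0.60 to 1.03 for the Csrp3 difference with siSMYD3#2, and from -0.0386 to 0.27 and -0.77 to 0.0018 for Ldb3 in CL5 at 24 h and 0 h. In the comparisons given by range alone, 40 of 391 alternative values changed sign, 0 of them past the threshold. Groups of the overexpression series held 2 libraries each, and the scarce members at most 354 counts in a library, which limits the precision of their values.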

Other observations

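The makeup of the myozenins at 24 h is given by library. Per kb of exon, Myoz2 held 53.4 to 69.7% of the summed level of the 3 myozenins in siCtrl libraries and 52.5 to 74.5% in CL5, 0 to 44.1% in the vector control, 24.0 to 35.6% in the 2 siSMYD3#1 libraries with any count and 24.0 to 76.8% with siSMYD3#2. These shares rest on at most 64 counts of a gene in a library and were not tested.

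Before differentiation, the TRIzol library of siCtrl and the vector control, which was also extracted with TRIzol, are given side by side, since they belong to separate series that were scaled separately. Actn3 was 15.8 CPM in the former and 15.9 and 21.9 CPM in the latter, Xirp1 1.99 against 3.77 and 3.41 CPM, and Ldb3 63.0 against 67.9 and 71.9 CPM. The NucleoSpin libraries of siCtrl gave 145 and 160 CPM for Actn3, 30.7 and 32.4 CPM for Xirp1 and 31.7 and 30.9 CPM for Ldb3, nearer for Actn3 and Xirp1 to CL5 at 0 h (70.4 and 143 CPM, 26.2 and 19.4 CPM). The part of extraction and passage in these levels was not tested.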
